A study of Mus musculus with 20 samples.

Results

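The data described here are the 10 RNA-seq libraries of inguinal white adipose tissue (the subcutaneous fat depot of the groin), out of 20 libraries in the series. All 10 were chosen by their tissue label: 5 are labelled as Klf14 knockout (KO) and 5 as wild type (WT). Every mouse was a male of the strain C57BL/6N fed chow, and the series title describes the deletion of Klf14 as germline. The knockout allele, and which bases of the gene it removes, are not given in the sources used here. The labelled KO libraries are numbered 31, 32, 35, 50 and 66, and the labelled WT libraries 33, 34, 48, 49 and 56, after the number in each title. KO 31, KO 32, KO 35, KO 66, WT 33 and WT 34 came from mice of 21 weeks, KO 50, WT 48 and WT 49 from mice of 19 weeks, and WT 56 from a mouse of 18 weeks. Since no label states that the libraries of a group are from separate animals, a p-value here reflects only how far these libraries differ among themselves. The question was which genes differ in fat between the labelled genotypes, and how much the libraries of each group differ among themselves.

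Klf14 is a Krüppel-like zinc finger transcription factor, a family that binds GC-rich and CACCC-type sequences. The gene is imprinted and expressed from the maternal allele, and variants near human KLF14 have been linked to fat cell size, plasma lipids and type 2 diabetes. Inguinal fat holds lipid-laden adipocytes beside vessels, nerves, fibroblasts and immune cells. The depot encloses a lymph node, lies on skeletal muscle under the skin, and can turn on thermogenic genes in beige adipocytes. Bulk RNA mixes all of these, so fewer cells of a type and less RNA per cell cannot be told apart.

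No gene passed the test for a difference between the labelled genotypes in inguinal fat. Most of the genes with the largest variance between libraries were genes of hepatocytes, the main cell type of liver. Genes of skeletal muscle, lymph node, glandular epithelium and blood also varied widely within each labelled group. The adipocyte markers themselves varied less. The promoters of 4 genes named in these results are shown first, to set beside the values. Each is the window of 300 bases around the start site from RefSeq (build GRCm38.p6, plus strand). Alb (albumin) lies at chr5:90460620-90460919 and Mug1 (murinoglobulin, a plasma protease inhibitor) at chr6:121838291-121838590, and both were high in some libraries and low in others. Capitals mark GTTAAT, or its reverse complement ATTAAC, a half-site of the hepatocyte factor HNF1:
Alb: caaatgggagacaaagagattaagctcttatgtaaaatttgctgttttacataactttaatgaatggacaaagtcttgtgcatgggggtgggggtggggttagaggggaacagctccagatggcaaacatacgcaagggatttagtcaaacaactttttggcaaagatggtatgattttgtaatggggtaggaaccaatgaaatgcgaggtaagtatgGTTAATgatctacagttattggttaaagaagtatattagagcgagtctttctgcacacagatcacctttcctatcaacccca
Mug1: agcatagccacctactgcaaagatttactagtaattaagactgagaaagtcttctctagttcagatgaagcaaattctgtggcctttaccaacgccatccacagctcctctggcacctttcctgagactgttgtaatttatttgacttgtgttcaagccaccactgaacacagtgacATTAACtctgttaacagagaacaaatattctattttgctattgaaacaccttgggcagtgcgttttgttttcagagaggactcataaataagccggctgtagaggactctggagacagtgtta
Myh4, the fast myosin heavy chain of skeletal muscle (chr11:67237562-67237861), had the largest variance between libraries of any gene with a mean of at least 10 CPM. Its capitals mark CAGCTG, the E-box of muscle transcription factors:
Myh4: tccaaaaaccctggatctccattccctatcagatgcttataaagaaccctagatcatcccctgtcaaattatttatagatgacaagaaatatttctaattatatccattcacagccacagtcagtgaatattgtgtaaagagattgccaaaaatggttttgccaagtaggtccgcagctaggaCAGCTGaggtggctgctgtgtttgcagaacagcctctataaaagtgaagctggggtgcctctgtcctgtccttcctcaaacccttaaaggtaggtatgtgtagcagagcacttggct
Igfbp2, a secreted binding protein of insulin-like growth factors (chr1:72824230-72824529), is among the genes with the smallest unadjusted p and is higher in labelled KO. Its capitals mark GGGTG, the reverse complement of CACCC, the core of sequences bound by Krüppel-like factors:
Igfbp2: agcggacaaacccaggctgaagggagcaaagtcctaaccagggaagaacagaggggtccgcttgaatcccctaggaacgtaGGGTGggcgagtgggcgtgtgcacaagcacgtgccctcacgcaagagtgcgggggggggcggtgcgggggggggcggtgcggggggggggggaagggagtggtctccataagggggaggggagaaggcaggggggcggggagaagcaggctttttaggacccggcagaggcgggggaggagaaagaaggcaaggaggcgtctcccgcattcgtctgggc
The windows and the marked motifs were chosen after motif matches were seen. A first search took 7 motifs and 5 windows (Apoa1, Ckm, Cd79a, Adipoq and Igfbp2), in which the hepatocyte motifs were not found in Apoa1 nor the B cell motifs in Cd79a. The search was then narrowed to 3 motifs, and the windows printed for Alb, Mug1 and Myh4 were picked because they hold one, so their matches are no observation about these genes. The CACCC match of Igfbp2 was seen in the first search before its window was printed, so it is no observation about Igfbp2 either. All 7 motifs are given here, searched on both strands, and no motif contains another. GTTAAT is in 7.2% of 27025 promoter windows of this length and in 7 of the 21 hepatocyte genes with a window. CAAAGT, a core of the hepatocyte factor HNF4, is in 14.3% of all windows and likewise in 7 of those 21. It is also in the printed windows of Igfbp2 and Alb, where it is not marked. CAGCTG is in 16.1% of all windows and in 11 of 22 muscle genes. CACCC is in 56.7% of all windows and in 9 of the 15 genes with a window among the 24 of smallest p, a share of 60%, close to that of all windows. Its share was 61.9% in hepatocyte, 86.4% in muscle, 75% in B and T cell and 60% in adipocyte genes. CACCC is also in the printed windows of Alb (2 matches) and Myh4 (1 match), where it is not marked, so it does not set Igfbp2 apart. The B cell motifs, the octamer ATGCAAAT (1.75% of all windows) and the EBF1 motif (0.914%), were in 0 and 1 of 12 B and T cell genes, and TTGCNNCA (C/EBP, 11.4%) in 3 of 15 adipocyte genes. TTGCNNCA is also in the printed window of Mug1, where it is not marked. A match is a description of letters in a window.

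Libraries held 14.8 to 18.7 M counts (M, mega-counts), and 16105 of 24062 genes were tested. Levels are given as CPM, the reads of a gene for every mega-count of its library, with library sizes scaled by TMM. Adipoq, which encodes adiponectin, was 735, 1486, 974, 2158 and 1262 CPM in KO 31, 32, 35, 50 and 66 and 1788, 1334, 646, 1567 and 1053 CPM in WT 33, 34, 48, 49 and 56. With Fabp4 (the adipocyte fatty acid binding protein, 2735 to 9698 CPM) and Plin1 (perilipin, which coats lipid droplets, 340 to 1455 CPM), it marks every library as adipose. Transcripts of other cell types were present too.

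Klf14 was measured first. Its raw counts were 33, 20, 8, 20 and 46 in the labelled KO libraries and 49, 5, 1, 12 and 5 in the labelled WT libraries, in the order given above. Only WT 33 was above the highest labelled KO library, and the groups overlapped. On unscaled library sizes the level was 1.5 ± 0.81 CPM in the KO-labelled group and 0.859 ± 1.14 CPM in the WT-labelled group (SD, n = 5 each), a difference of 0.641 CPM (exact two-sided permutation test, p = 0.349, smallest possible p 0.00794). Without WT 33 the difference was 1.14 CPM (exact permutation p = 0.0317), and in the mice of 21 weeks it was -0.0136 CPM (exact permutation p = 1). The files count 1 exon of Klf14 (chromosome 6, 30956021 to 30958990, minus strand, mm10), so they cannot show whether a deleted part is missing, and the level does not check the labels.

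Genes were compared with edgeR's quasi-likelihood test with Benjamini-Hochberg adjustment. Of 16105 genes tested, 0 (0%) passed an adjusted p of 0.05, and the smallest adjusted p was 1. With no adjustment 89 genes (0.553%) had p under 0.05, 39 of them (0.242%) higher and 50 (0.310%) lower in labelled KO. The share of 0.553% is below the fraction of 0.05 expected where no gene differs. The count of calls was likewise 0 in DESeq2, where 127 genes had an unadjusted p under 0.05, and in limma voom, where 247 had one. The median 95% interval of a log2 fold change had a half-width of 0.415, and the interval of 67.1% of genes was narrower than 1.5-fold to either side. Over all tested genes 8040 were higher and 8065 lower, and the median log2 fold change was -0.000198. Under random assignment of the labels, 2 groups of 5 separate fully in a fraction of 0.00794 of assignments. In 13 genes (0.0807%), a smaller share than that, the 5 labelled KO libraries and the 5 labelled WT libraries did not overlap. They are Cep19, Mettl4, Ido2, Tbc1d7, Tmem260, 1110038F14Rik, Phf5a and Mir7045 with a higher level in labelled KO, and Gm16998, Zfyve19, Zfp775, Loh12cr1 and Eps8l1 with a lower one. Most of these differences are small: Phf5a, a splicing factor subunit, was 19.2 to 20.3 CPM in the KO-labelled and 16.8 to 19.1 CPM in the WT-labelled group. Eps8l1, a regulator of the actin cytoskeleton, had the widest one, with 0.93 to 10.5 CPM against 10.9 to 30.4 CPM, and it shares exon bases with another gene.

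Since none passed the adjustment, the genes of smallest unadjusted p are described by their levels. Cep19 encodes a protein of centrioles and cilia. It was 7.74, 7.16, 7.0, 5.96 and 7.82 CPM in the KO-labelled group and 5.45, 5.85, 5.11, 5.85 and 5.16 CPM in the WT-labelled group, with log2 fold change 0.38 (SE 0.12, edgeR adjusted p = 1). Its groups do not overlap, although KO 50 lies just above the highest labelled WT library. Mettl4, a methyltransferase, was 22.3, 20.1, 20.4, 21.3 and 20.2 CPM in the KO-labelled group and 19.8, 16.7, 17.8, 17.5 and 17.0 CPM in the WT-labelled group (log2 fold change 0.23, SE 0.08). Ido2, a tryptophan-degrading enzyme, was also separated, but at a low level of 0.76 to 0.964 CPM in the KO-labelled group against 0.191 to 0.622 CPM in the WT-labelled group.

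Igfbp2, whose promoter is shown above, was 10.4, 3.24, 6.71, 8.80 and 10.1 CPM in the KO-labelled group and 3.13, 0.56, 1.0, 5.02 and 3.12 CPM in the WT-labelled group (log2 fold change 1.61, 95% interval 0.41 to 2.82, edgeR adjusted p = 1). Its groups overlapped because KO 32 was below WT 49. Saa1 and Saa4, which are liver-expressed serum amyloid genes, are among the same genes. So are Cyp4a12a (a cytochrome P450 of fatty acids) and Hfe2 (hemojuvelin, an iron regulator). Hfe2 was 1.51 CPM in KO 31, the library with the lowest sum of the hepatocyte genes described below. It was 0.41 to 1.94 CPM in the other labelled KO libraries. Saa1 was 0.05, 11.6, 2.45, 152.6 and 0.41 CPM in the KO-labelled group and at most 1.54 CPM in the WT-labelled group. Its log2 fold change of 5.30 was 2.08 without KO 50.

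Among genes with a lower level, Garnl3, a GTPase-activating protein of the Rap family, was 6.54, 7.37, 6.42, 8.73 and 7.01 CPM in the KO-labelled group and 9.80, 10.2, 8.63, 11.2 and 9.56 CPM in the WT-labelled group (log2 fold change -0.45, SE 0.12). Only KO 50 was above the lowest labelled WT library. The transcript Gm16998 was 0.62 to 1.23 CPM in the KO-labelled group and 1.48 to 2.0 CPM in the WT-labelled group, with no overlap (log2 fold change -0.81, edgeR unadjusted p = 0.0031). Klra8 and Klra21, killer cell lectin-like receptors, share exon bases and nearly the same values in every library, so their reads cannot be split and they count as 1 observation.

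**Figure D1:**
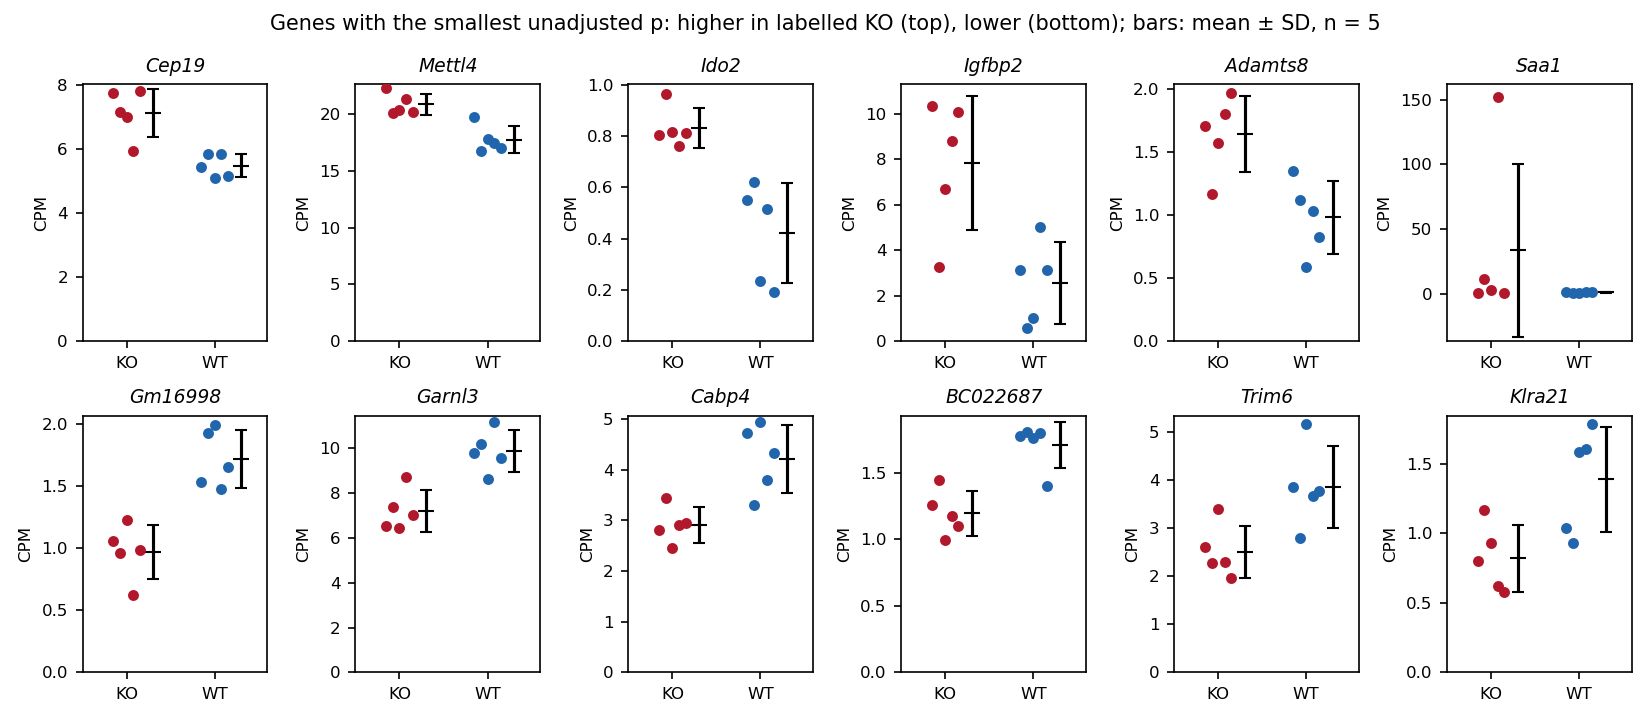
CPM of the 6 genes with the smallest unadjusted p that were higher (top) and lower (bottom) in labelled KO, 1 point per library (red labelled KO, blue labelled WT) with mean and SD bars (n = 5). For Cep19, Mettl4, Ido2 and Gm16998 the groups do not overlap, and for Saa1 the mean in labelled KO rests on KO 50 at 152.6 CPM.

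The hepatocyte genes were assembled into a list of 26 genes after their values were seen, so their direction carries no test. They take 16 of the 20 largest variances of log2 CPM among genes with a mean of at least 10 CPM. Summed over the list, the level was 20.5, 915, 1784, 3254 and 2989 CPM in KO 31, 32, 35, 50 and 66 and 868, 51.2, 66.7, 1375 and 660 CPM in WT 33, 34, 48, 49 and 56. KO 31, WT 34 and WT 48 are low and the other 7 libraries are high. Alb was 9.65, 257, 572, 394 and 880 CPM in the KO-labelled group and 275, 17.8, 16.7, 322 and 205 CPM in the WT-labelled group, against at most 6.33 CPM, on library sizes without TMM scaling, in any pituitary library. Not every list member was that low in pituitary, where Mat1a reached 42 CPM and Apob 30.7 CPM on the same scale. In inguinal fat the labelled groups overlap widely, since 1 labelled KO and 2 labelled WT libraries are low.

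KO 31, WT 34 and WT 48 were the 3 lowest libraries in 25 of the 26 genes. The exception is Fgg, a fibrinogen chain, which was 13.1 CPM in WT 34, above WT 33 (11.9 CPM) and WT 56 (8.47 CPM), and made up 25.6% of the list sum of WT 34. Mug1 was 0.25 CPM in KO 31 and WT 34 and 2.29 CPM in WT 48, and 35.9 to 263 CPM in the other 7. Cps1, the first enzyme of the urea cycle, was 0.10, 0.12 and 2.06 CPM in those 3 and 23.8 to 134 CPM in the others. Apob, the protein of liver lipoproteins, was 2.01, 1.99 and 7.34 CPM and 83.1 to 453 CPM. The log2 fold change was above 0 in all 26 genes and its median was 1.57, beside -0.000198 over all tested genes, and 0 passed the test. The list's 95% intervals had a median half-width of 2.74 on the log2 scale, and the median was 1.22 without KO 50 and 2.16 without WT 49.

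KO 50 stands apart within the hepatocyte genes. Alb made up 12.1% of its list sum and 23.4% to 32% of that in the other 6 high libraries, while Hpx (hemopexin, an acute-phase protein) made up 10% of it. Hpx was 325 CPM in KO 50 and at most 43.9 CPM elsewhere. S100a8 and S100a9, the calprotectin genes of neutrophils, were 40.5 and 63.7 CPM in KO 50, with at most 1.96 and 2.82 CPM in any other library. Their log2 fold changes of 3.47 and 3.56 were 0.54 and 0.19 without KO 50. The summed level of blood cell genes was 10148 CPM in KO 50 and 1241 to 5241 CPM elsewhere, and the median log2 fold change of that list, 0.35, was -0.53 without KO 50. In that list Hba-a1 and Hba-a2, Hbb-b1 and Hbb-bs, and Hbb-b2 and Hbb-bt hold nearly the same counts, and each pair is 1 observation. The sum and the median hold both members of each pair, so the sum overstates the level. Taken singly, Hba-a1 was 2022 CPM in KO 50 and 360 to 1200 CPM elsewhere. Hbb-b1 was 2556 CPM in KO 50 and 287 to 1179 CPM elsewhere. Of all tested genes, KO 50 had the highest level in 26.4% and the lowest in 29.4%, against at most 14.9% and 16.1% for any other library. Acute-phase genes, a list that shares members with the hepatocyte list, had log2 fold changes above 0 in 12 of 13, with a median of 0.33 that was 0.0383 without KO 50. Fits without KO 50 and with a hepatocyte score are given in the last section. How much of the other results comes from KO 50 or from hepatocyte genes was not itself tested.

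**Figure D2:**
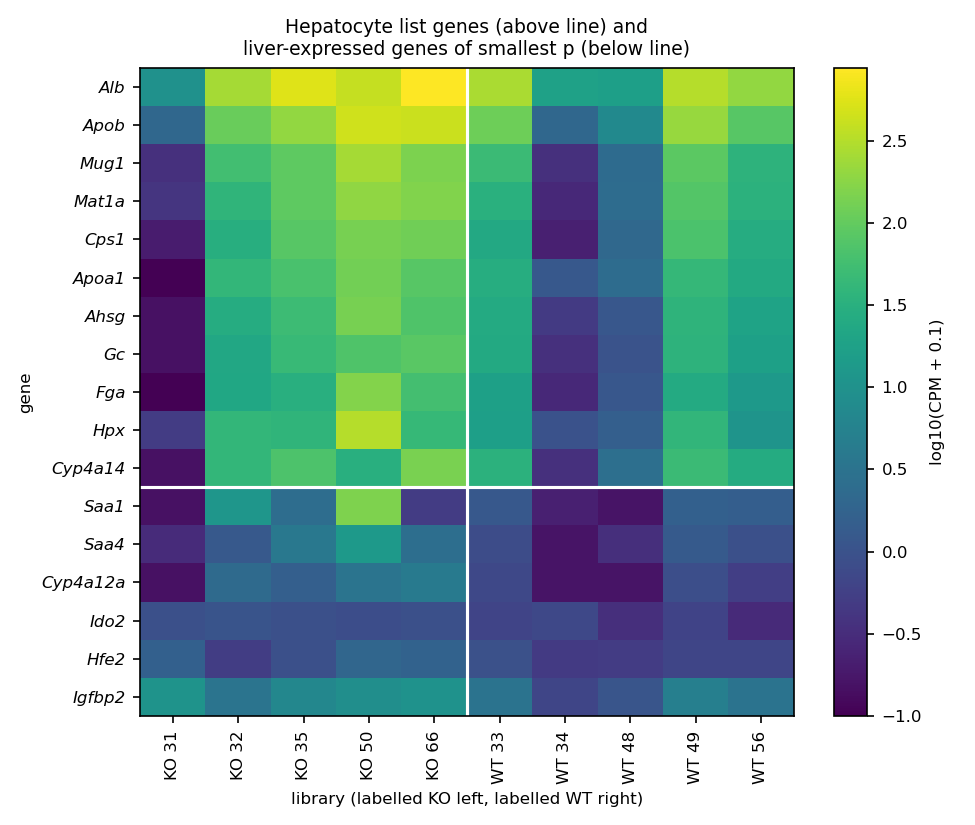
Level of 11 hepatocyte list genes (above the line) and of 6 genes with small unadjusted p (below the line) in each library, as log10 of CPM plus 0.1. KO 31, WT 34 and WT 48 are dark for the hepatocyte genes, and KO 50 is brightest for Hpx and Saa1.

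Lymph node genes were highest in KO 31 and WT 48 and lowest in KO 50. The 20 measured B and T cell genes, such as Cd79a (part of the B cell receptor) and Cd3e (part of the T cell receptor complex), summed to 2678, 1251, 2308, 51.1 and 1782 CPM in the KO-labelled group and 1385, 1817, 2738, 751 and 2180 CPM in the WT-labelled group. In KO 50 Cd79a was 1.32 CPM against 32.8 to 154 CPM elsewhere. The log2 fold change was above 0 in 3 genes and below 0 in 17, with a median of -0.09 (0.22 without KO 50), and 0 passed. Ccl21a, a chemokine of lymphatic vessels and lymph node, was 2.63 CPM in KO 50 and 58.5 to 203 CPM elsewhere, and its counts are the same as those of its copy Gm1987.

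Skeletal muscle genes were highest in KO 31. Their sum was 1928, 516, 845, 165 and 777 CPM in the KO-labelled group and 666, 574, 755, 268 and 418 CPM in the WT-labelled group, which overlap. Myh4, whose promoter is shown above, was 224, 37.0, 78.8, 0.35 and 65.3 CPM in the KO-labelled group and 54.0, 28.6, 56.3, 0.06 and 0.13 CPM in the WT-labelled group. It was therefore near 0 in 1 labelled KO and 2 labelled WT libraries. The log2 fold change was above 0 in all 21 tested muscle genes, its median was 0.95, and 0 passed. Without KO 31 the median was 0.21. Acta1, skeletal actin, had a log2 fold change of 1.09 (95% interval -0.10 to 2.28), and Des, the desmin filament protein, 0.12.

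Epithelial genes marked 2 other libraries. Krt18, a keratin of glandular epithelium, was 36.6 CPM in KO 66 and 74.7 CPM in WT 34. It was 11 CPM in WT 48 and at most 4.30 CPM in the other 7. Ltf, lactoferrin of milk and neutrophils, was 47.0 CPM in KO 66, 63.2 CPM in WT 34 and 13.5 CPM in WT 48, with Epcam and Krt8 high in the same libraries. The list's median log2 fold change of -1.03 turned to 0.68 without WT 34 and was -2.38 without KO 66. KO 32 held pituitary transcripts: Gh (growth hormone) was 91.6 CPM there (1330 counts), against at most 0.955 CPM in the other 9. Prl (prolactin) was 16.2 CPM, Pomc (the corticotropin precursor) 6.75 CPM and Cga (the alpha subunit of glycoprotein hormones) 2.69 CPM. On library sizes without TMM scaling, these 4 genes were at 0.0466% to 0.104% of their level in the pituitary library numbered 32. Fits with muscle and with B and T cell scores are given in the last section. How much of the other results comes from muscle, lymph node, epithelial or pituitary transcripts was not itself tested. When any 1 library was left out, 0 genes passed.

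**Figure D3:**
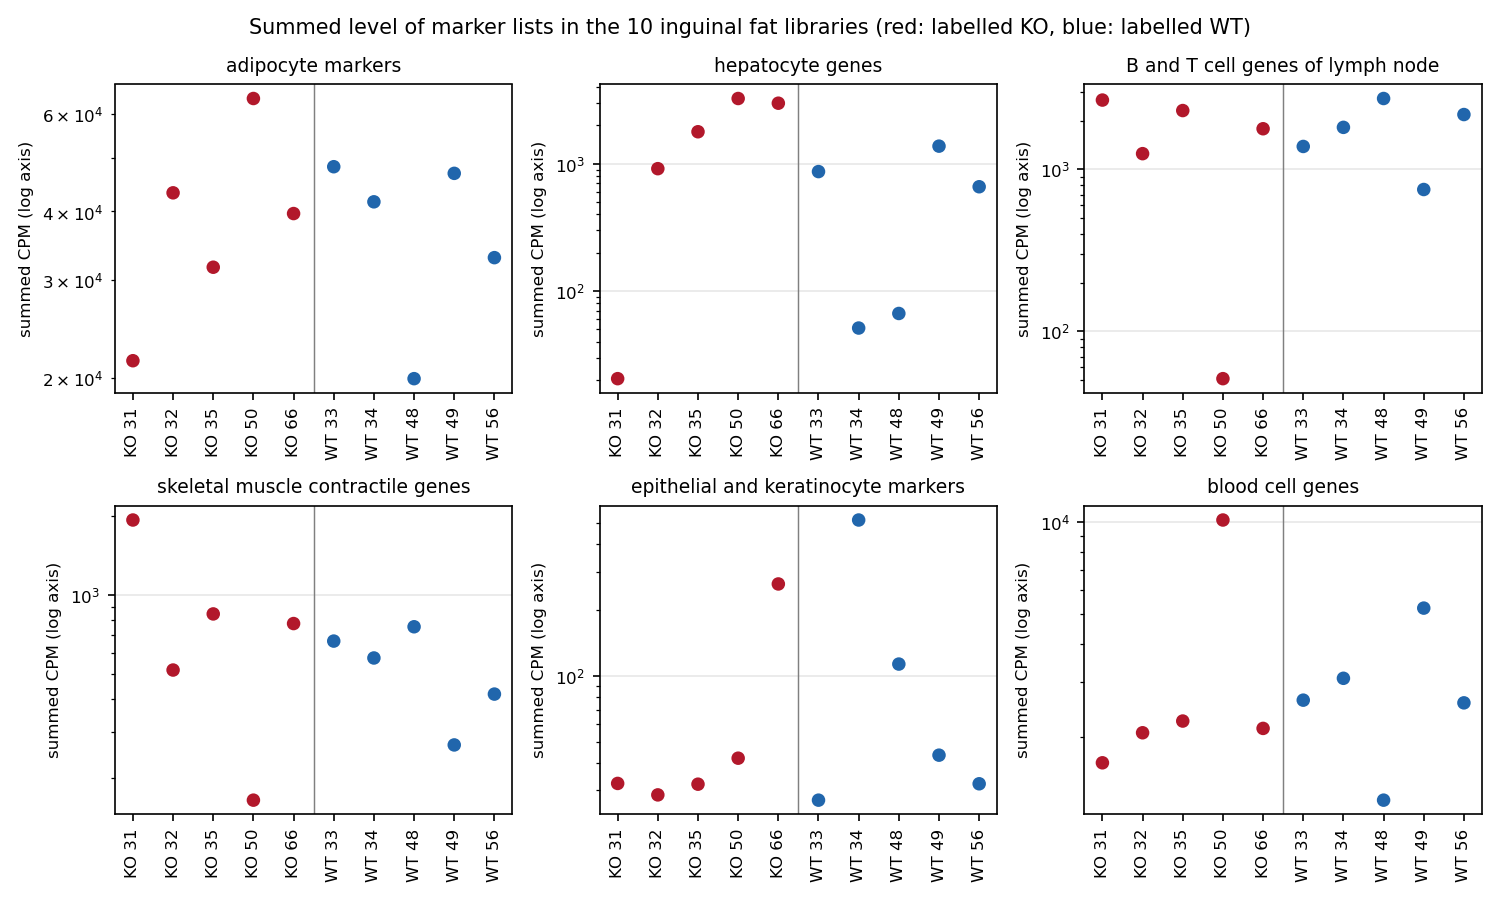
Summed CPM of 6 lists in each library on log axes (red labelled KO, blue labelled WT). The blood cell sums count both members of each pair of hemoglobin copies. KO 31, WT 34 and WT 48 have the lowest hepatocyte sums, KO 50 has the lowest B and T cell sum (51.1 CPM), and KO 66 and WT 34 have the highest epithelial sums.

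Principal components of log2 CPM describe the same libraries without lists. The first component holds 55.2% of the variance, and the genes with the highest weights are Fga, Mug1, Saa1, Bhmt, Ahsg, Hpx, Cps1, Mat1a, Ambp and Gc, made mainly by hepatocytes. The lowest weights include Myh4 and Ckm of muscle and Ms4a1 and Pax5 of B cells. KO 50 scored 110.4 and WT 49 39.7, and KO 31 (-59.0), WT 48 (-55.0) and WT 34 (-36.4) scored lowest, so both labelled groups lie on both sides. Without KO 50 the share was 43.6%. The genotype label holds 6.85% of the total variance and age 10.4%, where 11.1% is the share expected of a term with 1 degree of freedom and no relation to expression.

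**Figure D4:**
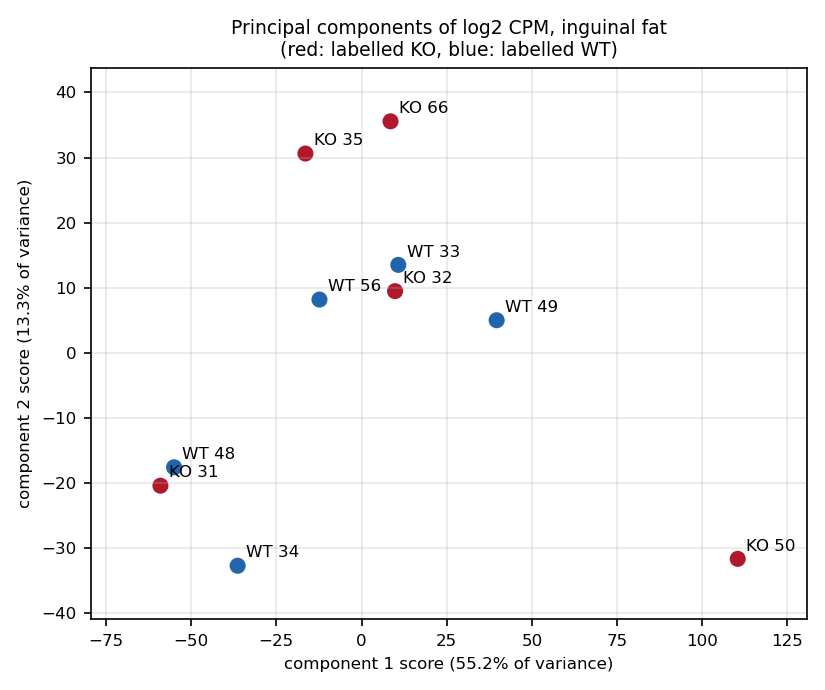
Scores of the 10 libraries on the first (55.2% of variance) and second (13.3%) principal component of log2 CPM. KO 50 lies alone at the right, KO 31, WT 48 and WT 34 at the lower left, and the labelled groups are interleaved.

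Adipocyte markers were lowest in the libraries where lymph node genes were highest. The 20 markers summed to 21466, 43232, 31700, 64064 and 39651 CPM in the KO-labelled group and 48205, 41640, 19918, 46888 and 32993 CPM in the WT-labelled group. KO 50 was highest, and KO 31 and WT 48 were lowest. The log2 fold change was above 0 in 17 and below 0 in 3, with a median of 0.08 (-0.142 without KO 50), and 0 passed. Adipoq had a log2 fold change of 0.05 (95% interval -0.69 to 0.79), Fabp4 0.19 (-0.55 to 0.93) and Plin1 0.25 (-0.49 to 0.99). These intervals include both 0 and a level 1.5-fold higher in labelled KO. Without KO 50 the log2 fold changes were -0.20, -0.0381 and -0.00613, below 0 for all 3.

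Lists of fat metabolism had medians near 0. The log2 fold change was above 0 in 19 of 22 lipogenesis genes (median 0.11), and for Scd1, the stearoyl-CoA desaturase of fat synthesis, it was 0.34 (95% interval -0.60 to 1.28). It was above 0 in 17 of 19 genes of lipolysis and the lipid droplet (median 0.19), in 16 of 20 of insulin signalling (median 0.07) and in 9 of 16 of fatty acid oxidation (median 0.00405). Without KO 50 the medians of lipogenesis, lipolysis and fatty acid oxidation were -0.0755, -0.141 and -0.234, and 0 genes passed in any list.

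Thermogenic genes had their highest sums in KO 50 (699 CPM), KO 32 (535 CPM) and WT 48 (518 CPM), and the list ranged from 238 to 441 CPM in the other 7 libraries. Ucp1, the uncoupling protein of brown and beige adipocytes, was 1.36, 4.54, 0.29, 18.4 and 0.23 CPM in the KO-labelled group and 2.15, 0.87, 109.3, 7.01 and 4.21 CPM in the WT-labelled group. Its log2 fold change of -2.33 (95% interval -5.63 to 0.96) turned to 0.47 without WT 48. Cidea, a lipid droplet protein of brown fat, was 101 CPM in WT 48 and 132 CPM in KO 50, with 6.84 to 53.7 CPM in the other 8. Of 15 thermogenic genes 5 had a log2 fold change above 0, and the median of -0.11 was -0.416 without KO 50 and 0.0547 without KO 35.

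Several immune and stromal lists had mostly negative log2 fold changes, none past the test. Others went the other way, with values above 0 in 5 of 7 neutrophil genes, 11 of 16 endothelial markers and 8 of 13 smooth muscle and pericyte markers. The value was below 0 in 20 of 20 interferon response genes (median -0.34), and Irf7, an interferon regulatory factor, was 27.6 to 68.9 CPM in the KO-labelled group and 29.6 to 111 CPM in the WT-labelled group. WT 33 had the highest sum of the list, 1350 CPM, and without it the median was -0.0841. The value was below 0 in 16 of 17 macrophage genes (median -0.24), and Csf1r, the receptor of macrophage colony stimulating factor, had a log2 fold change of -0.39 (95% interval -0.82 to 0.04). It was below 0 in 7 of 8 mast cell genes (median -0.85), among which Mcpt4, a mast cell protease, was 30.9 CPM in WT 49 and 2.29 to 13.1 CPM elsewhere. Without WT 49 the median was -0.34 for mast cell genes and -0.0146 for macrophage genes. It was below 0 in 12 of 12 genes of Schwann cells, which sheathe nerves (median -0.20), and in 16 of 20 extracellular matrix genes (median -0.13). Without WT 49 the Schwann cell median was -0.0161, and without WT 33 the extracellular matrix median was 0.139. In every other list with tested members 0 genes passed too, with medians from -0.22 for lymphatic endothelial markers to 0.25 for neutrophil genes. Without KO 50 these 2 medians were -0.0639 and -0.0383.

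Of 19 tested members of the Krüppel-like and SP families, Klf14 included, 0 passed, and 13 had a log2 fold change below 0 (median -0.05). Klf5, which acts in fat cell differentiation, was below 1.9 CPM in every library and had a log2 fold change of -0.77 (95% interval -1.62 to 0.09). Mest, an imprinted gene near Klf14, was 107.7 CPM in WT 33, the library with the highest Klf14, and 8.83 to 39.2 CPM elsewhere.

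**Figure D5:**
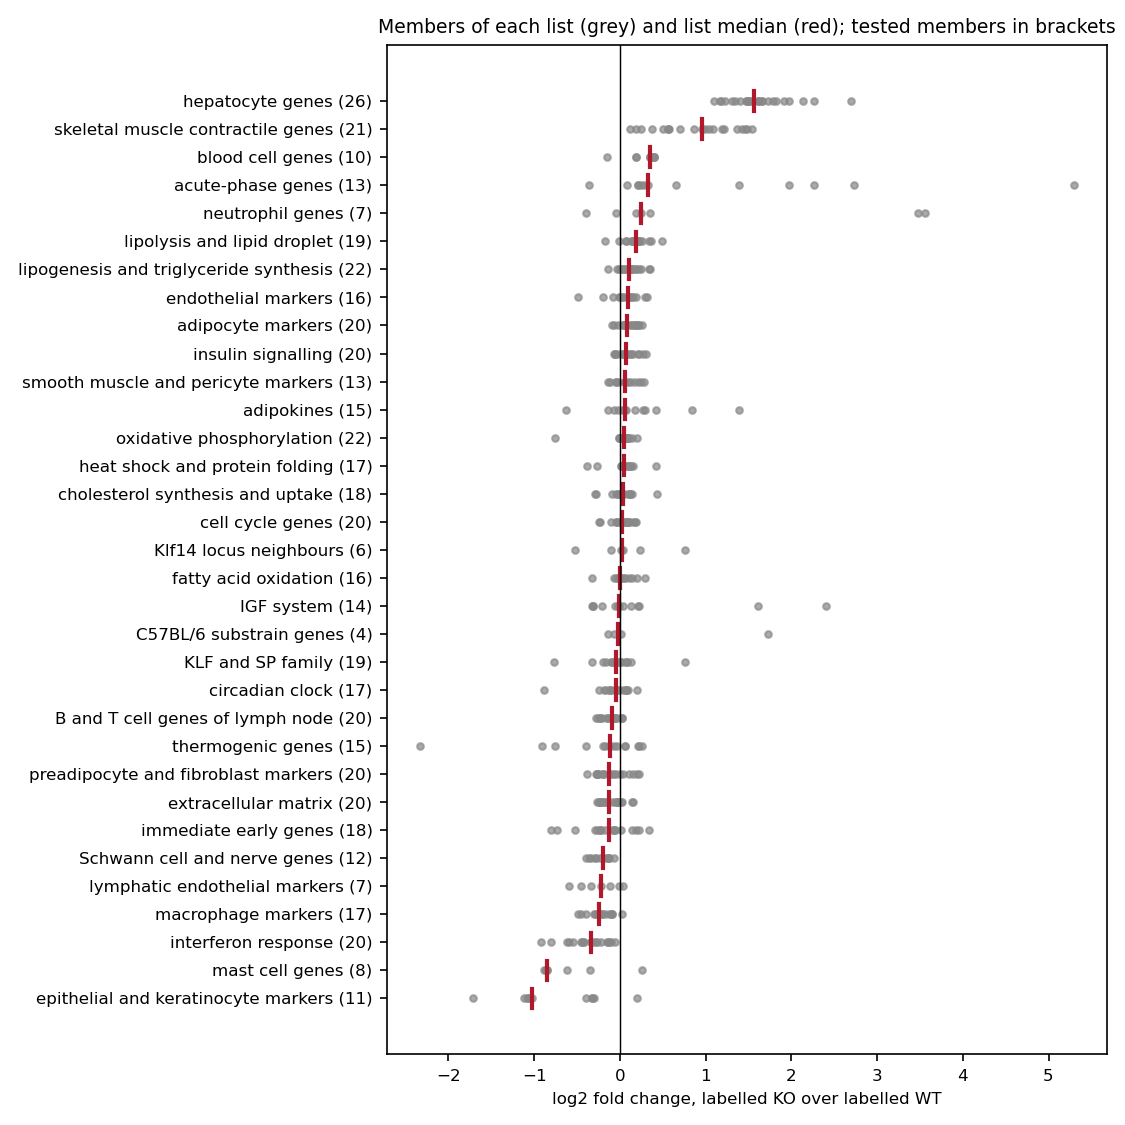
Log2 fold change of each tested member (grey) and the median (red) for every list with tested members. Hepatocyte genes (median 1.57) and skeletal muscle genes (0.95) lie to the right, epithelial genes (-1.03) to the left, and most metabolic lists near 0.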

How the data were processed

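Poly(A) RNA of the 10 inguinal fat libraries was read from the counts the authors deposited, which are whole numbers per gene and not normalized. Alignment with STAR 2.4.0 and counting with featureCounts 1.4.4 are named in the submitters' processing notes. Exons of a UCSC mm10 annotation were counted, with primary alignments alone, a read given to every gene it overlaps and no strand option, per the file headers. Of the genes in the table, 3147 share exon bases with another gene. Pairs of libraries within a group differed by more than sampling noise (smallest reduced chi-square 28.4).

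The fit used edgeR 4.0.16 under R 4.3.3, with its default filter, TMM scaling, a robust quasi-likelihood test and no covariate. Intervals are 95%, and principal components used log2 CPM with a prior count of 2. DESeq2 1.42.0, limma 3.58.1 voom, other scalings, filters and covariates, age, mice of 21 weeks and leaving out each library were alternatives. The fit was also run on simulated counts that were drawn for each gene on its own. They hold no shift in cell make-up shared by a library, so they do not gauge the fit under such shifts. Genes are named by rule: Klf14, the 12 smallest p in each direction, the 20 largest variances, the 10 leading genes of each side of a component, and the leading list members, with others chosen after their values were seen. The lists and rules were chosen with earlier results of these data known, and the hepatocyte list and its covariates were added after seeing the data. Lists carry no test. One gene is not reported here. Promoter sequences are from RefSeq. Of 7 motifs first searched, 3 were kept for the printed windows after their matches were seen, and the windows were picked among genes that hold them and whose start lies within 100 bases of the counted start.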

Additional observations from a re-analysis of the deposited data

Results flagged for a closer look

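A library was picked out where it lay far from the other 4 of its group by Dixon's criterion. For independent, normally distributed values, chance meets the criterion in about 1 of 20 groups. The values here are CPM without a log scale, many genes were chosen by or after their values, and 1 library can be extreme in many of them. Of 178 groups examined, 27 values met the criterion, a count that cannot be set against that rate. KO 50 accounts for most of those in labelled KO: blood cell genes summed to 10148 CPM, neutrophil genes to 218.3 CPM, Saa1 was 152.6 CPM, Saa4 13.2 CPM, Hpx 325.3 CPM, S100a8 40.5 CPM, S100a9 63.7 CPM and Ucp1 18.4 CPM. The blood cell sum counts both members of each pair of hemoglobin copies. Tbc1d7, a subunit of the TSC complex, was also highest in KO 50 (7.83 CPM). Hsph1, a heat shock protein, was lowest there at 15.1 CPM. KO 31 had the highest interferon sum (1060 CPM), KO 66 the highest epithelial sum (263.7 CPM) and Krt18 (36.6 CPM), and KO 32 the highest pituitary hormone sum (118.7 CPM) and Ido2 (0.964 CPM).

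Among labelled WT, WT 33 was highest for Klf14 (3.0 CPM), Mest (107.7 CPM) and the neighbours of Klf14 (429.9 CPM in sum) and Zfyve19 (16.5 CPM), and lowest for Mir7045 (0.245 CPM). WT 34 was highest for epithelial genes (517.3 CPM) and Krt18 (74.7 CPM), and WT 48 for Ucp1 (109.3 CPM) and Lrrc63 (3.46 CPM), and it was lowest for Tmem260 (36.2 CPM). WT 49 was highest for Mcpt4 (30.9 CPM), and WT 56 was lowest for BC022687 (1.4 CPM).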

How the results depend on the processing

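No paired analysis was run, because the labelled KO and labelled WT libraries share no number in their titles and the labels name no pairs. No gene was called under any of the 27 alternatives, among them DESeq2, limma voom, an adjusted p of 0.1, age, mice of 21 weeks only, covariates of cell type scores and leaving out each library. Genes with an unadjusted p under 0.05 numbered 89, from 79 without WT 48 to 245 without KO 31, and 587 with the muscle score as a covariate, 356 without a filter, 313 with the B and T cell, muscle and adipocyte scores, 263 with the B and T cell score, 247 in voom, 203 with the hepatocyte, B and T cell and muscle scores, 165 with the adipocyte score, 154 with age, 148 in mice of 21 weeks and 137 with the hepatocyte score. The Klf14 difference of 0.641 CPM ranged from 0.342 to 1.14 CPM when a library was left out and was -0.0136 CPM in mice of 21 weeks. Of 1382 values for 54 genes, 1345 kept their direction and 37 reversed, and 41 genes never reversed. Many of the 54 genes were chosen for a small p or for groups that do not overlap, which largely fixes their direction in advance. None of the genes chosen that way reversed, so these counts do not measure how stable the directions are. The mice of 21 weeks leave only WT 33 and WT 34 in the WT-labelled group. In mice of 21 weeks the log2 fold changes were -0.102 for Klf14, -0.486 for Adipoq, -0.357 for Fabp4, -0.358 for Plin1, 0.0716 for Ucp1, 0.0773 for Csf1r and 0.22 for Mcpt4. With the hepatocyte, B and T cell and muscle scores they were -0.509 for Klf14, -0.439 for Adipoq, -0.359 for Fabp4, -0.275 for Plin1, -0.00491 for Scd1 and -0.248 for Myh4. With the hepatocyte score alone they were -0.167 for Adipoq, -0.017 for Fabp4 and 0.777 for Krt18. With the B and T cell score Adipoq was -0.175 and Fabp4 -0.0132, with the adipocyte score Adipoq was -0.0611, and with the B and T cell, muscle and adipocyte scores Adipoq was -0.156, Fabp4 -0.0276 and S100a9 -0.35. In voom Adipoq was -0.0134, S100a9 -0.098 and Mest 0.306, with age as a covariate Myh4 was -0.485 and Des -0.0287, and with the muscle score Des was -0.124. Leaving out 1 library, the ranges were -0.197 to 0.203 for Adipoq, -0.0381 to 0.377 for Fabp4, -0.00613 to 0.462 for Plin1, -3.98 to 0.471 for Ucp1, -0.0773 to 0.275 for Des, -3.49 to 1.06 for Krt18 and -0.797 to 0.659 for Mest. List medians moved by more than the spread of their libraries for blood cell genes (-0.528 without KO 50, -0.504 in mice of 21 weeks), mast cell genes (0.0342 in mice of 21 weeks, -0.178 with the B and T cell, muscle and adipocyte scores, -0.0849 with the hepatocyte, B and T cell and muscle scores, -0.336 without WT 49), epithelial genes (0.68 without WT 34), the Krüppel-like and SP families (-0.143 with the muscle score), and the Klf14 neighbours (-0.497) and heat shock genes (-0.153) with the hepatocyte, B and T cell and muscle scores. The cause was not tested.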
